A study of Homo sapiens with 6 samples.

Results

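Small nucleolar RNAs and small Cajal body RNAs were followed through the fixation and sorting protocol MARIS on expression arrays. The members were chosen by symbol and by measured value: a row of the deposited intensity table was taken when its symbol began with SNORA, SNORD or SCARNA followed by a digit and when its intensity was 40 or more on at least 3 of the 6 samples. This gave 59 members of 300 such symbols on the array, in a table of 31410 symbols of which 12653 passed the same limit and were tested. The members comprised 25 of 102 SNORA symbols (H/ACA class), 27 of 174 SNORD symbols (C/D class) and 7 of 24 SCARNA symbols. The selection used all 6 samples, so the level of a member is a description, and a symbol that was bright in only 1 of the compared groups could enter through that group alone.

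The samples came from 3 differentiations of human embryonic stem cells, carried to stage 6 of a stepwise protocol, at which insulin-expressing cells are present in a mixed culture. Differentiations 1 and 2 were of the line H1 and differentiation 3 was of the line HUES8; both are established lines, and the labels give no genetic change or drug in any group. Each culture was divided in 2. Fresh, unsorted cells gave the live sample, extracted with the RNAeasy kit. The remainder gave the processed sample: cells were fixed in 4% paraformaldehyde, permeabilized, antibody stained and run through the sorter with every cell kept, before RNA was extracted with the MARIS protocol. Live and processed samples of a culture form a pair, and pairs 1, 2 and 3 below carry the number of the differentiation. HUES8 was represented by a single culture, and a line is a single genetic background here. The RNA of whole cultures was measured, so fewer cells of a type and less RNA per cell cannot be told apart.

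Small nucleolar RNAs guide chemical modification of other RNAs. C/D RNAs carry fibrillarin, NOP56, NOP58 and SNU13 and direct ribose methylation, mostly of ribosomal RNA, whereas H/ACA RNAs carry dyskerin, NHP2, NOP10 and GAR1 and direct pseudouridylation. Small Cajal body RNAs use the same proteins but reside in Cajal bodies, where they guide modification of the spliceosomal RNAs. A few members act in cleavage of the ribosomal RNA precursor instead, among them U3, which the array lists as SNORD3A, SNORD3C and SNORD3D. Most human small nucleolar RNAs are excised from introns of host genes, while U3 and SNORD13 are transcribed from promoters of their own. The mature RNAs mostly lack a poly(A) tail, and the labelling kit primes from such tails, so mature RNA, tailed forms and unspliced host precursor could not be told apart from the array signal.

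Of the 59 members, 56 matched a current RefSeq symbol and 3 an older one (SNORA45, SNORA76 and SNORA80), and 54 lay within the span of another gene. These spans belonged to 45 host genes. Ribosomal protein genes held 19 members, long non-coding RNA genes held 8 and other genes held 27. TAF1D, which encodes a subunit of the RNA polymerase I selectivity factor, held 5 members, and RPS2, RPL7A, RPSA and SNHG1 were among the hosts that held 2 each. SNORA76, SNORD13 and the 3 U3 copies lay in no such span. Strands of members were not given in the reference, so a host is named by span alone.

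Many host genes begin with a run of pyrimidines at the transcription start, known as a terminal oligopyrimidine tract in genes of the translation machinery. The start regions of 6 hosts are shown because the members described most fully below lie in them: SNORA25 and SNORA32 in TAF1D, SNORD36A in RPL7A, SNORA63 in EIF4A2, SNORD12C in ZFAS1, SNORA12 in CWF19L1 and SCARNA14 in TIPIN. Each runs from 30 bases before to 20 bases after the start annotated by RefSeq on GRCh38.p14, on the transcribed strand, and capitals mark a C followed by at least 4 bases that are each C or T.
TAF1D (chr11:93741476-93741525, minus strand): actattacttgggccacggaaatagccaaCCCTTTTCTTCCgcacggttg
RPL7A (chr9:133348188-133348237, plus strand): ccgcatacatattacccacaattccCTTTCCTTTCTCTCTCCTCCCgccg
EIF4A2 (chr3:186783547-186783596, plus strand): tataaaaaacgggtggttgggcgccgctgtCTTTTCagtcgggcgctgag
ZFAS1 (chr20:49278612-49278661, plus strand): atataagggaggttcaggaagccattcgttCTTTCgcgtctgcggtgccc
CWF19L1 (chr10:100267619-100267668, minus strand): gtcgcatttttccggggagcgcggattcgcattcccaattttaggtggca
TIPIN (chr15:66386698-66386747, minus strand): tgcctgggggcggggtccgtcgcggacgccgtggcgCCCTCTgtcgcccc
Such a run, starting between 5 bases before and 10 bases after the start and read on the transcribed strand only, was found in 22 of 38 host promoters in the RefSeq table (57.9%). It was found in 8 of 10 promoters of ribosomal protein hosts (80.0%), in 3 of 6 of long non-coding hosts, in 11 of 22 of other hosts and in 7053 of all 27305 promoters (25.8%). The run is a description of these letters and its use in the cultures was not measured.

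Members gave low intensities throughout. The mean over the 6 samples had a median of 62.6 over the members (range 35.5 to 267) against 180 over all tested symbols, and 31 of the 59 members reached 40 on every sample. Nearest inside the threshold, the third highest intensity was 40.9 for SNORD55 and 41.3 for SNORA84, and nearest outside it was 39.3 for both SNORD22 and SNORA29. SNORA84 overlaps the RefSeq locus of hsa-miR-3651 (chr9:92292461-92292484, minus strand, GRCh38.p14), shown because a microRNA is annotated on the small nucleolar RNA itself, with the seed in capitals.
hsa-miR-3651: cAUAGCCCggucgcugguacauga

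The 6 arrays were alike in general brightness, with medians over all symbols of 22.5 to 27.4 and between 12297 and 12698 symbols at 40 or more. The member medians were 65.1, 73.1 and 54.4 in live samples 1, 2 and 3 and 64.1, 64.5 and 61.4 in processed samples 1, 2 and 3. The live HUES8 sample stood apart for members: it held the lowest value of 25 of 59 (42.4%, against 20.1% of all tested symbols), and 18 members lay below 40 on it. The 25 and the 18 include the 5 members below 40 on both HUES8 samples, which entered through H1 samples alone. They also include SCARNA14, which reached 40 only on the live H1 samples and the processed HUES8 sample. Live sample 2 held the highest value of 22 of 59 (37.3%, against 17.6%). Both were live samples, and each bears on the differences of its pair. Defining endocrine markers such as INS and CHGA were present on all arrays. The 6 liver and gut markers had a median HUES8 minus H1 level of -3.55 on the log2 scale. Their summed intensity was 12618 to 18532 in H1 samples and 2832 to 3496 in HUES8 samples. The same median was 1.11 for neural (4 of 5 tested), -1.31 for mesenchyme, -0.35 for endocrine and -0.38 for pluripotency markers (3 of 5 tested). The pluripotency sum went the other way from its median. It was 2513, 2879 and 3427 in live samples 1 to 3 and 2178, 2363 and 2700 in the processed ones. The mesenchyme sum was 2916 in live sample 2 and 935 in live sample 1. The part of these differences in the results below was not tested.

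No member passed the test between processed and live samples. Of 59 members, 0 were called (limma with the differentiation as a block, Benjamini-Hochberg adjusted p under 0.05), against 0 of 12653 tested symbols (0.0%). At an unadjusted p under 0.05 there were 4 members, against a background of 9.65%. Leaving out differentiation 2 gave 4 calls (SNORA25, SNORA28, SNORA70B and SNORD56) and leaving out differentiation 3 gave 1 (SNORD3D), whereas leaving out differentiation 1 gave 0. The share of all tested symbols called in these reduced fits is not given here, so the counts are not a result about the members. The smallest adjusted p of a member was 0.389, and the median half-width of a member's 95% interval was 0.36 on the log2 scale. All differences are processed minus live in log2(intensity + 20), which understates changes at low intensity.

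**Figure D1:**
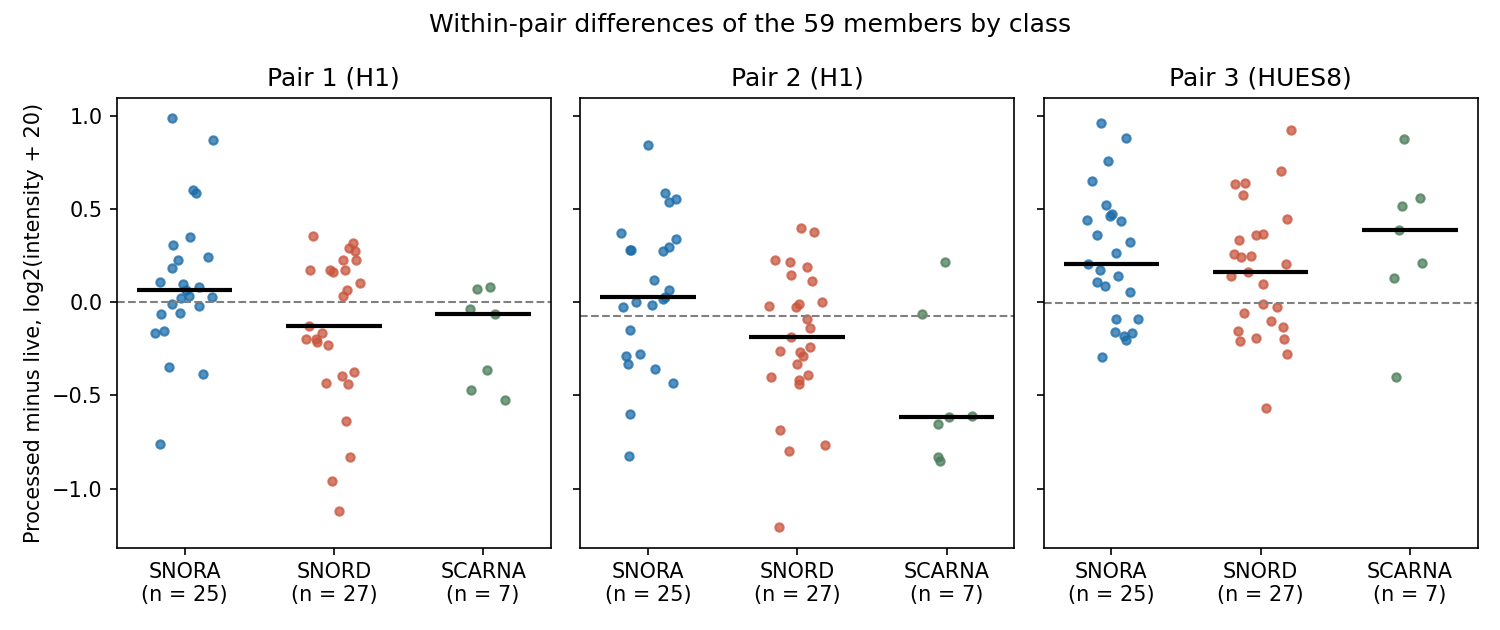
Processed minus live differences (log2(intensity + 20), vertical axis) of each member in the 3 pairs, by class; points are members, black bars class medians and dashed lines the median over all tested symbols. The class medians of C/D and Cajal body RNAs lie below 0 in both H1 pairs and above 0 in HUES8, with the Cajal body RNAs at -0.62 in pair 2 and 0.39 in pair 3, or at -0.063 and 0.21 over the 3 of them at 40 or more on every sample.

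Within single pairs the members spread to both sides of 0. The plot of differences by class shows medians over all members of 0.03 in pair 1, -0.06 in pair 2 and 0.20 in pair 3, against 0.00, -0.07 and -0.01 over all tested symbols. Processed was the higher sample for 31, 23 and 40 of the 59 members. In pair 1, 4 members were at least 1.5-fold higher in the processed sample (background 1.84%) and 5 at least 1.5-fold lower (background 1.49%). In pair 2, 2 members were 1.5-fold higher (background 3.23%) and 11 lower (background 5.32%). In pair 3, 9 members were 1.5-fold higher (background 5.75%) and 0 lower (background 2.13%). Each pair has 1 sample per arm, so these counts carry no test. Few members kept one direction: 8 of 59 were higher in all 3 pairs (13.6%, background 13.7%) and 5 of 59 lower (8.5%, background 19.8%). Without overlap between the groups, 2 members lay higher in every processed sample than in any live one (background 2.4%) and 2 lower (background 2.96%). The former were SNORA25 and SNORA32, of which SNORA32 owed its direction to the limit itself.

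The H/ACA RNAs were the class with the most means above 0. Their median difference was 0.07, 0.03 and 0.20 in the 3 pairs, and the mean over pairs was above 0 for 19 of 25 (76.0%, background 43.9%). In all 3 pairs, 6 of 25 were higher (24.0%, background 13.7%), among them SNORA32, whose direction was fixed by the limit. SNORA70B was also among the 6, with a difference of only 0.0003 in pair 2. SNORA25, a guide of ribosomal RNA pseudouridylation, gave 103, 125 and 71.4 in live samples 1 to 3 and 126, 191 and 158 in the processed ones. Every processed value exceeded every live value. The mean difference was 0.58 ± 0.36 (SD, n = 3 pairs; limma adjusted p = 0.389). SNORA32, from the same host gene, gave 37.4, 38.7 and 39.5 live and 50.9, 85.4 and 60.3 processed. All 3 live values lay under 40 and all 3 processed values above it, so SNORA32 became a member through its processed samples alone. Its direction was fixed by that choice, and its mean difference of 0.53 ± 0.28 (SD, n = 3 pairs) is a description only. No other member passed the limit through live or processed samples alone. Between the lines, 5 members lay below 40 on both HUES8 samples and so entered through H1 samples alone. Members below 40 on all 4 H1 samples numbered 0.

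SNORA70B gave 24.1, 57.1 and 28.3 live against 67.3, 57.1 and 49.2 processed, a mean difference of 0.50 ± 0.49 (SD, n = 3 pairs; limma adjusted p = 0.482). The groups overlapped and pair 2 showed no difference. SNORA70B and SNORA70C are close relatives of SNORA70, so the signal of these rows may be shared. SNORA70 itself gave 265, 196 and 287 live and 281, 304 and 268 processed, and only in pair 2 did the samples stand apart.

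SNORA63, also known as E3, ran the other way. It gave 51.3, 73.4 and 61.0 live and 22.0, 41.5 and 52.5 processed, lower after processing in each pair, with an overlap of the third processed value and the first live one. The mean difference was -0.51 ± 0.31 (SD, n = 3 pairs; limma adjusted p = 0.405). SNORA6 and SNORA12 had the next lowest means of the class, at -0.07 and -0.10, and both held pairs of opposite sign. SNORA6 gave 115, 57.8 and 85.0 live and 83.3, 74.2 and 78.7 processed, with the processed values inside the live range.

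The C/D RNAs were divided in pair 1, with 13 higher and 14 lower after processing, and 20 of 27 were lower in pair 2. Their median difference stood at -0.13, -0.18 and 0.16, in order of the pairs. The mean over pairs was below 0 for 18 of 27 (above 0 for 33.3%, background 43.9%). Without the 3 rows of U3, described below, the median of pair 1 was above 0, at 0.05. SNORD36A, a guide of ribosomal RNA methylation within RPL7A, gave 166, 160 and 157 live and 142, 129 and 133 processed. All 3 processed values lay below all live values, the pairs agreed to within an SD of 0.04, and the mean difference was -0.22 (limma adjusted p = 0.583). SNORD6 gave 65.3, 60.5 and 61.2 live and 58.1, 41.4 and 57.9 processed, the other member whose processed samples all lay below the live ones, with a mean of -0.19 (limma adjusted p = 0.657). SNORD36A and SNORD6 were singled out after their values were seen. SNORD35B gave 139, 116 and 94.7 live and 61.7, 95.1 and 112 processed. Its mean of -0.33 ± 0.59 (SD, n = 3 pairs) rested mainly on pair 1.

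The highest C/D means belonged to SNORD56, SNORD12C and SNORD83B. SNORD56 gave 35.8, 56.0 and 29.9 live and 51.3, 56.0 and 61.4 processed, a mean of 0.35 ± 0.35 (SD, n = 3 pairs). SNORD12C, within the long non-coding RNA gene ZFAS1, gave 70.7, 52.1 and 32.2 live and 81.4, 63.7 and 47.1 processed. It was higher after processing in each pair, by 0.16, 0.21 and 0.36, although the groups overlapped because the cultures differed more than the preparations. SNORD83B gave 72.0, 70.5 and 38.7 live and 58.5, 80.1 and 71.1 processed, with pair 1 opposite to the others.

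All 7 Cajal body RNAs had a mean difference below 0, between -0.26 and -0.003, yet none went the same way in all 3 pairs. Their median stood at -0.06 for pair 1, -0.62 for pair 2 and 0.39 for pair 3. In HUES8, 6 of 7 were higher after processing (85.7%, against 49.1% of all tested symbols). SCARNA14 was among the 6 and in these medians, although the limit fixed its direction in each pair, as described below. Over the 3 that reached 40 on every sample (SCARNA9, SCARNA10 and SCARNA13), the medians were -0.04, -0.063 and 0.21. SCARNA9, a guide of methylation of the U2 spliceosomal RNA, gave 135, 345 and 172 live and 143, 218 and 232 processed. The live sample of culture 2 was the high one, and pairs 2 and 3 pointed in opposite directions. SCARNA18 gave 88.6, 169 and 30.7 live and 95.1, 104 and 52.5 processed, and SCARNA11 gave 71.1, 88.5 and 20.7 live and 67.2, 40 and 24.5 processed. Both were lowest in the live HUES8 sample. SCARNA8 gave 43.0, 80.2 and 13.5 live and 25.5, 43.6 and 29.3 processed, lower in both H1 pairs and higher in HUES8. SCARNA13 gave 65.1, 97.5 and 43.1 live and 46.1, 92.5 and 52.9 processed, again with HUES8 alone higher. SCARNA10, or U85, which guides both kinds of modification on U5, was the exception in HUES8, with 125, 90.7 and 99.2 live and 121, 108 and 70.3 processed.

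The processing difference was then compared between the lines, with the question whether live and processed samples differed alike in both. By limma on the within-pair differences, 4 of 59 members were called, against 33 of 12653 tested symbols (0.261%). In all 4 the processed minus live difference was more positive in HUES8 than in H1, as it was in 30 of the tested symbols called (0.237%). They were SCARNA14, SNORD3D, SNORD13 and SNORA12. The direction of SCARNA14 was fixed by the limit, as described below. The fit had 1 residual degree of freedom, took its spread from the H1 pairs alone and gave the same SE of 0.38 to every symbol, with the single HUES8 pair assumed to vary like H1. None of the 4 was called when 50 was added in place of 20, when every symbol was tested, or when the arrays were scaled to a common median.

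**Figure D2:**
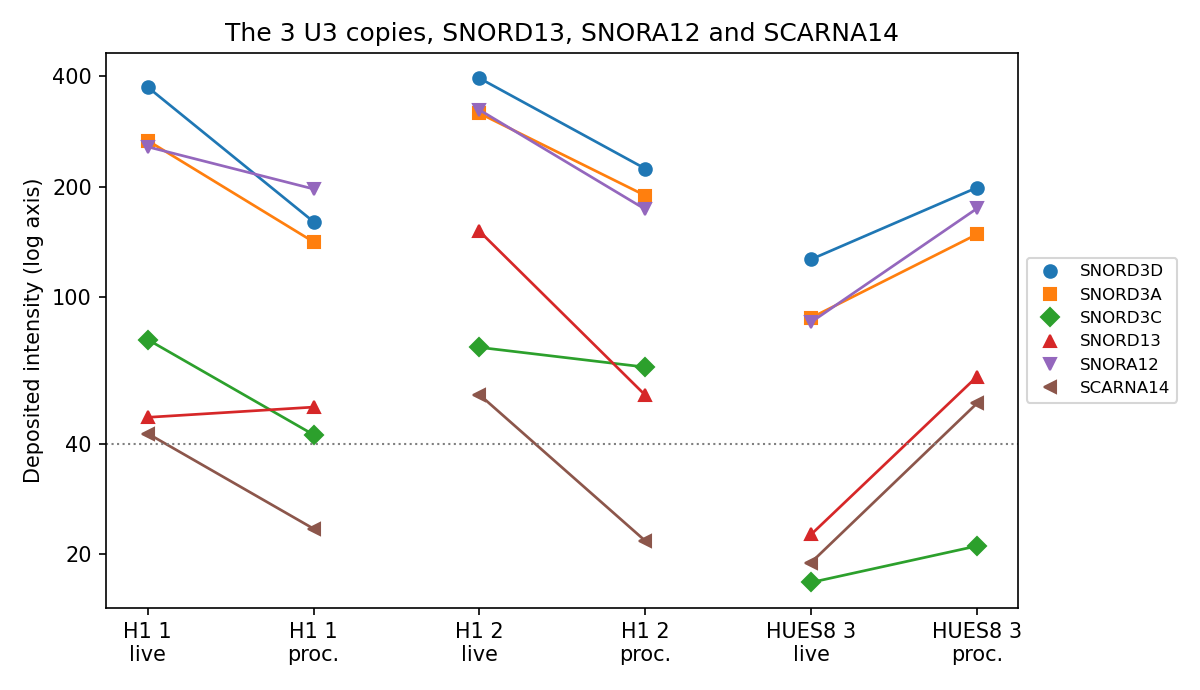
Deposited intensity (log axis) of SNORD3D, SNORD3A, SNORD3C, SNORD13, SNORA12 and SCARNA14 on the 6 samples; lines join the live and processed (proc.) samples of a culture and the dotted line marks 40. SNORD3D goes from 373 to 161 and from 395 to 224 in the H1 pairs and goes from 127 to 199 in HUES8, where the live sample is the lowest of the 6.

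U3 is required for early cleavages of the ribosomal RNA precursor. SNORD3D gave 373, 395 and 127 live and 161, 224 and 199 processed. SNORD3A gave 267, 317 and 88.0 live and 142, 189 and 149 processed. For both rows the H1 live samples were the highest and the HUES8 live sample the lowest, while the processed samples lay between them. The difference between lines was 1.52 for SNORD3D (95% interval 0.78 to 2.26; limma adjusted p = 0.0278) and 1.40 for SNORD3A (0.66 to 2.14; limma adjusted p = 0.0604). SNORD3C gave 76.8, 73.1 and 16.8 live and 42.3, 64.6 and 21.1 processed, with both HUES8 samples under 40. The U3 copies are near-identical, so these 3 rows may report 1 pool of RNA and are not independent of each other. Without the U3 rows, the C/D medians of pairs 2 and 3 became -0.14 and 0.12.

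SNORD13, which guides acetylation of the small-subunit ribosomal RNA, gave 47.2, 151 and 22.7 live and 50.3, 54.2 and 60.9 processed. One live sample of H1 stood far above and the live HUES8 sample below, whereas the processed samples were close together. The difference between lines was 1.49 (95% interval 0.76 to 2.23; limma adjusted p = 0.0340), but the H1 pairs themselves differed, at 0.06 and -1.21. SNORA12 gave 257, 324 and 85.7 live and 197, 174 and 175 processed. Both H1 cultures were lower after processing and HUES8 was higher, and the difference between lines was 1.47 (0.73 to 2.21; limma adjusted p = 0.0418). SCARNA14 gave 42.6, 54.4 and 19.0 live and 23.5, 21.8 and 51.5 processed. Its pattern was the same in direction, with 3 of its 6 samples under 40. It reached 40 only on the H1 live samples and the HUES8 processed sample. The limit thus fixed its direction, lower in H1 and higher in HUES8 after processing. Its difference between lines of 1.55 is a description only.

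**Figure D3:**
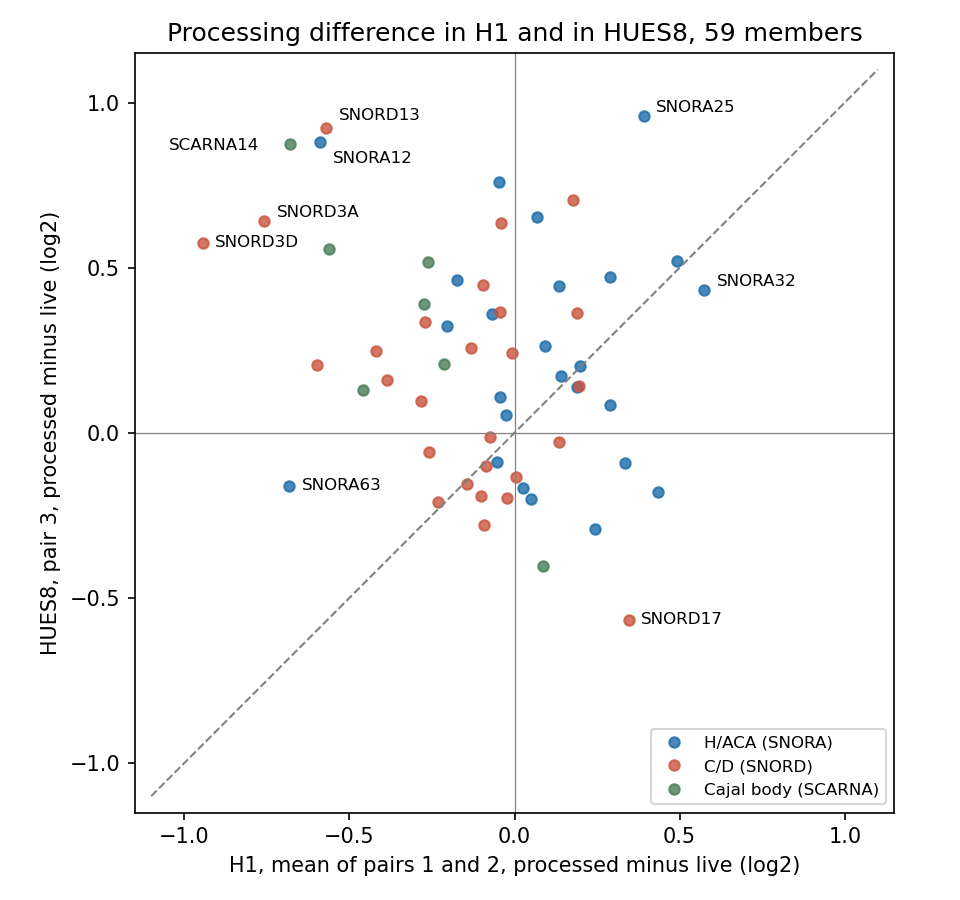
Processed minus live difference in HUES8 (pair 3, vertical axis) against the mean difference of the H1 pairs (horizontal axis), both in log2(intensity + 20), for the 59 members by class; the dashed line marks equal differences. SCARNA14, SNORD13, SNORA12, SNORD3A and SNORD3D lie at the upper left, below 0 in H1 and above 0 in HUES8, and SNORD17 at the lower right.

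More members were lower in H1 and higher in HUES8 than the reverse. As the plot of HUES8 against H1 differences shows, 12 of 59 members were lower after processing in both H1 pairs and higher in HUES8 (20.3%, background 10.3%), and 4 of 59 went the other way (6.8%, background 7.26%). The 12 comprised 4 of 7 Cajal body, 6 of 27 C/D and 2 of 25 H/ACA RNAs. SCARNA14 was among the 4, and its direction was fixed by the limit. The 3 U3 rows were among the 6, and without them the C/D count was 3 of 24 (12.5%). Of the 31 members at 40 or more on every sample, 5 had this order of signs (16.1%). The median difference between lines was 0.20 over the members and 0.04 over all tested symbols. At the other end, SNORD17 gave 45.4, 25.1 and 42.6 live and 61.4, 38.5 and 22.2 processed, a difference between lines of -0.91 (limma adjusted p = 0.818). SNORA76 gave 112, 80.1 and 140 live and 179, 102 and 122 processed, and SNORA18 gave 72.1, 67.2 and 114 live and 68.0, 108 and 89.4 processed, with differences between lines of -0.61 and -0.54. Neither of these was called.

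Levels were compared between the lines over the means of live and processed samples, and 0 of 59 members were called, against 219 of 12653 tested symbols (1.73%). At an unadjusted p under 0.05 there were 5 (background 10.6%), all lower in HUES8. These were SCARNA18 at -1.11, SNORD3C at -1.09, SCARNA11 at -0.99, SNORD3A at -0.83 and SNORA12 at -0.81. SNORD3C and SCARNA11 entered through H1 samples alone, so the limit fixed their direction and their values are a description only. The smallest limma adjusted p of a member, 0.154, was that of SNORD3C, and SCARNA18 had 0.167. The members highest in HUES8 were SNORA84 at 0.52, SNORD25 at 0.38 and SNORD55 at 0.34. SNORA84 gave 28.7, 41.3 and 42.7 live and 28.1, 28.7 and 66.5 processed, and only the processed HUES8 sample stood out. Of members under 40 on both HUES8 samples, the mean H1 level was at least 1.41-fold that of HUES8 for SCARNA11, 1.38-fold for SNORD3C, 1.33-fold for SNORA45, 1.17-fold for SCARNA8 and 1.14-fold for SNORA79, with the dim samples set to 40.

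**Figure D4:**
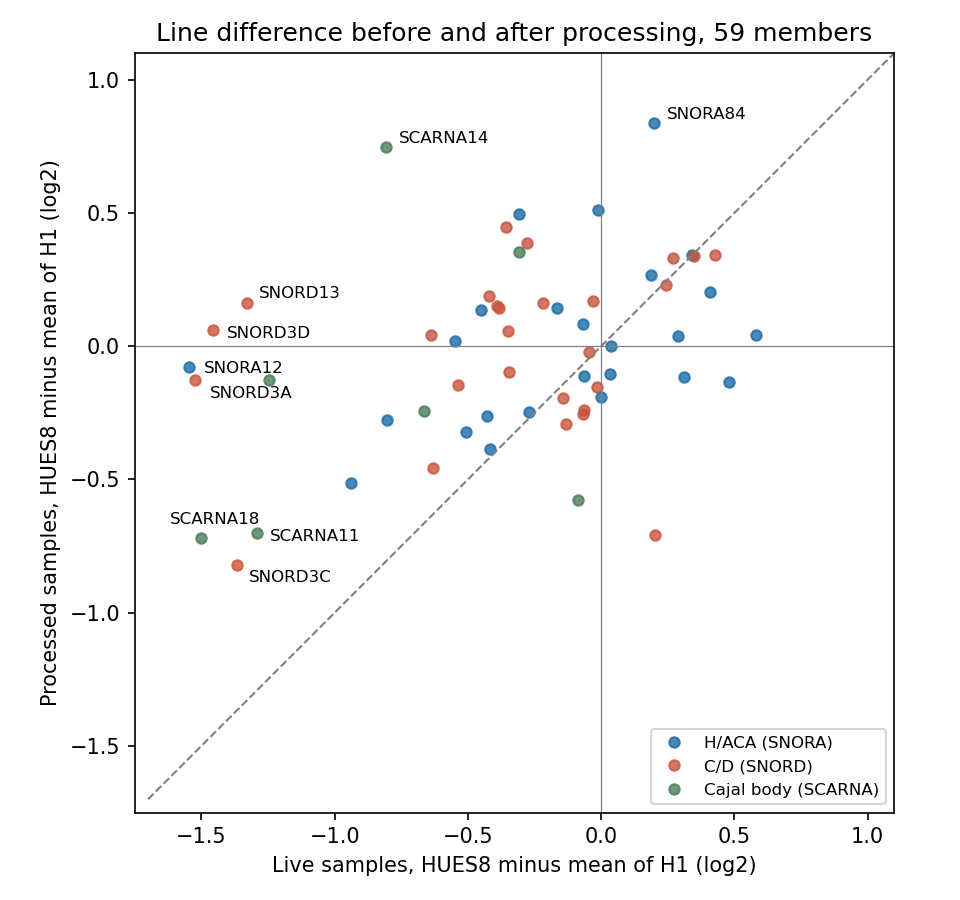
HUES8 minus the mean of H1 in processed samples (vertical axis) against the same in live samples (horizontal axis), in log2(intensity + 20), for the 59 members by class; the dashed line marks equal differences. In live samples 44 of 59 members lie below 0, and in processed samples 29 of 59.

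The distance between the lines depended on the preparation compared. Among live samples, HUES8 was lower than the mean of H1 for 44 of 59 members, with a median of -0.27 against -0.01 over all tested symbols. Among processed samples it was lower for 29 of 59, with a median of 0.00 against 0.04. Both counts include the 5 members that entered through H1 samples alone, SCARNA11 and SNORD3C among them. At least 1.5-fold lower were 14 members in live samples (23.7%, against 12.5% of all tested symbols) and 4 in processed samples (6.8%, against 9.7%). SNORA12 illustrates the change, at -1.54 in live and -0.08 in processed samples, as do SNORD3A at -1.52 and -0.13 and SNORD3D at -1.46 and 0.06. SCARNA18, SCARNA11 and SNORD3C stayed low in both, at -1.50 and -0.72, -1.29 and -0.70, and -1.37 and -0.82. These are the same samples as in the comparison of processing differences, so the 2 accounts are not independent, and with 1 HUES8 sample in each preparation no test was made.

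TAF1D allowed members of a single host gene to be set side by side. SNORA25 differed by 0.24, 0.54 and 0.96 in pairs 1 to 3 and SNORA32 by 0.30, 0.84 and 0.43. SNORA8, at 0.03, 0.37 and 0.20, was also higher in each pair. SNORA18, at -0.07, 0.55 and -0.29, and the C/D member SNORD6, at -0.13, -0.39 and -0.06, did not share that direction. The TAF1D row itself gave 152, 132 and 292 live and 141, 130 and 249 processed, lower in each pair by small amounts, at -0.10, -0.02 and -0.21. The members of this host thus lay on both sides of 0. SNORA32 entered through its processed samples alone, so its direction says nothing about the host.

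**Figure D5:**
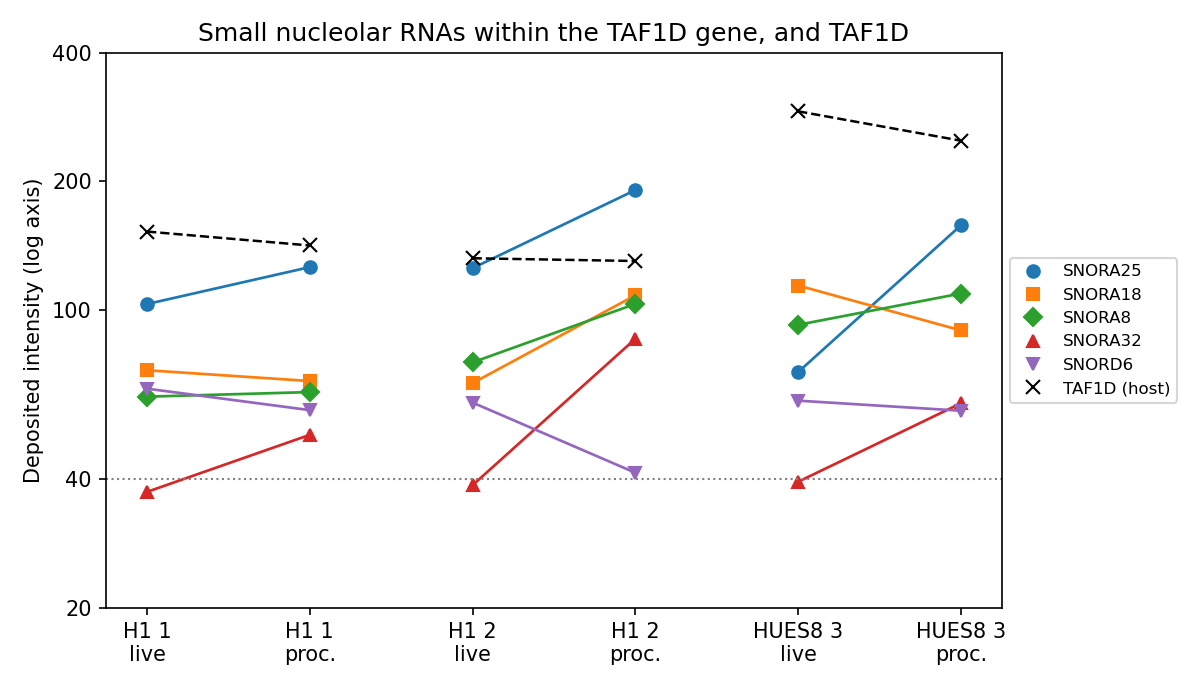
Deposited intensity (log axis) of the 5 members within the TAF1D gene and of the TAF1D row on the 6 samples; lines join the live and processed (proc.) samples of a culture and the dotted line marks 40. SNORA25 and SNORA32 are higher after processing in all 3 cultures, SNORD6 and TAF1D lower.

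Over all members with a tested host (46 members, 37 hosts), member and host differences had the same sign for 22, 27 and 24 in pairs 1, 2 and 3. Pearson's r across these members was 0.10, 0.15 and 0.09 for the differences, and 0.38 for the HUES8 minus H1 level. For that level only 19 of 46 members had the sign of their host, with medians of -0.11 for members and 0.37 for hosts. Members of 1 host share its value, and these correlations describe the arrays without a test. The hosts of these members had median differences of -0.10, -0.29 and -0.08, against -0.01, -0.02 and 0.21 for the members. The 5 members without a host span had medians of -0.64, -0.69 and 0.57, the 3 U3 rows among them.

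Genes for the protein partners showed small differences. In the H/ACA core, the mean processed minus live difference was -0.31 for DKC1 (dyskerin), -0.07 for NHP2, -0.11 for NOP10 and -0.13 for GAR1, and in the C/D core it was -0.20 for FBL (fibrillarin), -0.27 for NOP56, -0.22 for NOP58 and -0.21 for SNU13 (listed as NHP2L1). None of the 8 was called in any of the 3 fits. Of 19 assembly and transport factors, 16 were tested and 0 called. Their mean differences ran from -0.45 for RUVBL1, a helicase of the assembly machinery, to 0.22 for PAPD5, a poly(A) polymerase that tails small RNAs. Of 50 host genes on a list of known hosts, 45 were tested and 0 called between processed and live, with 1 of 45 higher and 20 of 45 lower in all 3 pairs (background 13.7% and 19.8%) and a median of -0.19. They ran from -0.43 for SNHG10 to 0.36 for PRRC2A (listed as BAT2).

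Other small RNAs had medians of the same signs as the Cajal body RNAs in each pair. Of 596 such symbols, 33 were tested, with medians of -0.19, -0.56 and 0.52 in the 3 pairs. Of the 33, 10 were called with a more positive processing difference in HUES8 (0.237% of all tested symbols). This was the same fit that rests on a single HUES8 pair. The 33 included RNU86, which RefSeq lists as the small nucleolar RNA SNORD139 and which the symbol rule left out of the members. RNU86 differed by 0.18, 0.16 and -0.59 in the 3 pairs, opposite in sign to the list medians. Rows for copies of the same RNA, as with U3, may not be independent of each other. The 9 U1 and Y RNA rows among the 33 had medians of -0.19, -0.81 and 1.06 and a summed intensity of 1554 in the live HUES8 sample, against 2772 and 3987 in the live H1 samples and 2171 to 3705 in the processed ones. The live HUES8 sample was thus lowest for the sum of these RNAs as well as for 25 of the members. Those 25 include 5 that entered through H1 samples alone. The part of the live HUES8 sample in the called members could not be removed, since HUES8 had no other pair.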

How the data were processed

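RNA of 6 samples was labelled with biotin from 100 ng of total RNA and hybridised to Illumina Human HT-12 BeadChips. The deposited intensities, 1 row per symbol, had been background-subtracted and rank-invariant normalized in GenomeStudio by the authors. A further table was not used, since its 12 columns of signals and detection p-values match no sample label. The members and lists were chosen with earlier results of these data known.

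Values below 0 were set to 0 (none among members), 20 was added and log2 taken. Symbols at 40 or more on at least 3 samples were tested with limma 3.58.1 in R 4.3.3 (lmFit, eBayes, two-sided), adjusted by Benjamini-Hochberg over all 12653, on processed against live with the differentiation as a block, on the within-pair differences between lines, and, between lines, on each culture's mean level. Labels give the live and processed samples of a culture the same differentiation, which pairs them; their deviations from the group means correlated at 0.79, 0.62 and 0.81 across all tested symbols and at 0.32, 0.27 and 0.35 across members. The smallest p of an exact sign-flip test on 3 pairs is 0.25. Replicates are separate differentiations.

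Members with values in every sample were those called, the 3 highest and 3 lowest mean differences of the SNORA and SNORD classes, every SCARNA, the 3 brightest, the extremes of each pair and the 3 largest and smallest differences between lines. Names, spans, promoters and the microRNA came from RefSeq tables of GRCh38.p14; no build is given for the array, so no array coordinates are printed. The fits were tested on simulated data. Alternatives were another offset, other filters, rescaling, quantile normalization, fits without the block, the methods' t-test, leaving out each differentiation and, chosen after seeing the data, a spread that depends on the mean level. The number of arrays limits the precision.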

Additional observations from a re-analysis of the deposited data

Results flagged for a closer look

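In 4 members the processing difference was called as differing between the lines by the limma fit on within-pair differences, which sets a single HUES8 pair against 2 H1 pairs and gives every symbol the same SE. None of the 4 was called with an offset of 50, with no filter or after median scaling of the arrays. The difference, HUES8 minus H1, was 1.52 for SNORD3D, 1.49 for SNORD13 and 1.47 for SNORA12, with limma adjusted p-values of 0.0278, 0.0340 and 0.0418. For SCARNA14 it was 1.55, a description only. SCARNA14 reached 40 only on the H1 live samples and the HUES8 processed sample, so the limit fixed its direction. In all 4 members the live HUES8 sample was the lowest of the 6. With either H1 pair left out, the difference ranged from 1.40 to 1.71 for SCARNA14, 1.34 to 1.70 for SNORD3D, 0.86 to 2.13 for SNORD13 and 1.23 to 1.71 for SNORA12, as values without a test.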

How the results depend on the processing

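Between processed and live samples, 0 members were called under each alternative on all 3 pairs, including the fit with no replicate block (0 called) and the methods' t-test (0 after Benjamini-Hochberg adjustment, 2 at an unadjusted p under 0.05). For the reduced fits that follow, the share of all tested symbols called is not given here. Leaving out a differentiation gave 0 to 4 calls: 0 without differentiation 1; 4 without differentiation 2 (SNORA70B, adjusted p = 0.0124, SNORA28, 0.0172, SNORA25, 0.0439, and SNORD56, 0.0439); and 1 without differentiation 3 (SNORD3D at -0.94, adjusted p = 0.0199), all by limma. The sign of the mean turned for some members in these fits, with ranges of -0.22 to 0.087 for SCARNA10, -0.46 to 0.034 for SCARNA11, -0.21 to 0.073 for SCARNA13, -0.68 to 0.17 for SCARNA14, -0.26 to 0.30 for SCARNA18, -0.56 to 0.044 for SCARNA8, -0.27 to 0.23 for SCARNA9, -0.59 to 0.27 for SNORA12, -0.24 to 0.093 for SNORA6 and -0.042 to 0.39 for SNORD83B.

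For the processing difference between lines, the 4 calls became 0 with an offset of 50, 0 with no filter and 0 after scaling arrays to a common median. Quantile normalization called the same 4. A filter on all 6 samples called 3 of which 2 were shared. A spread depending on the mean level called 4 of which 3 were shared. SNORD3A was the added member. The share of all tested symbols called in these alternatives is not given here, so the counts are not a result about the members. With members required at 40 or more on all 6 samples, the H/ACA median of pair 3 was 0.11 and the Cajal body median of pair 2 was -0.063. Between lines, 0 members were called for level under each alternative run. No value between lines was possible without differentiation 3. The causes were not tested. Low intensity limits all of these values, since 28 of 59 members lay below 40 on at least 1 sample.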
